A study of Mus musculus with 2 samples.

Results

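The genes described are 10 of the 55536 genes listed for mouse gastrocnemius, chosen by symbol for their role in taking up and storing calcium in muscle. They are the sarcoplasmic reticulum calcium pumps Atp2a1, Atp2a2 and Atp2a3, the pump inhibitors Pln and Sln, the luminal calcium buffers Casq1, Casq2, Srl and Hrc, and the cytosolic calcium buffer Pvalb. Each symbol matched 1 gene of the GENCODE M21 annotation on mm10. Total RNA came from the gastrocnemius, a calf muscle, of male B6CASTF1/J mice (an F1 cross of the B6 and CAST strains) at 2 months of age, and the labels name no treatment and no introduced allele. There was 1 group of 2 libraries, numbered replicate 1 and replicate 2, each with 300 ng of starting RNA and ERCC spike-ins. The labels point both libraries to the same donor entry and do not say whether separate animals were used, so the spread between them may be technical.

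Muscle relaxes when ATP-driven pumps in the sarcoplasmic reticulum membrane return calcium from the cytosol to the lumen, where acidic proteins hold it loosely until the next release. Fast fibres mainly use the pump encoded by Atp2a1 with the calsequestrin encoded by Casq1, and fast fibres of rodents also hold much parvalbumin in the cytosol. Slow fibres and heart use the pump encoded by Atp2a2, and there phospholamban, the product of Pln, slows the pump until it is phosphorylated. The calsequestrin encoded by Casq2 is that of heart and is also found in slow fibres.

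Each library came with tables of 2 kinds, called the first and the second tables, which give estimated read counts and TPM (a level per unit of transcript length, scaled to a fixed total). Levels are TPM of the first tables unless stated, with mean ± SD over the 2 libraries. Ratios divide the normalised count of replicate 2 by that of replicate 1, and brackets hold the exact 95% interval of a ratio, which covers counting error only. A gene was counted as past 1.5-fold when its ratio reached that size in either direction and its reads summed to at least 100. With 1 group there was no contrast between conditions and no test was made.

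Gene counts summed to 42724520 in replicate 1 and 42280091 in replicate 2. Of 11515 genes that passed the count filter, 6.74% were past 1.5-fold, 4.26% higher in replicate 2 and 2.48% higher in replicate 1. The median log2 ratio of these genes was 0.01. The 8 muscle fibre markers, among them Acta1 (skeletal actin), Ckm (muscle creatine kinase) and Pygm (glycogen phosphorylase), all passed the filter and summed to 49838 TPM in replicate 1 against 44394 TPM in replicate 2. Fast fibre markers summed to 70377 and 54872 TPM and slow fibre markers to 1464 and 3589 TPM, so in replicate 2 the slow sum was higher and the fast sum lower. Of the 10 fast markers 9 had log2 ratios below 0, and 1, the myosin heavy chain gene Myh1, was higher in replicate 2.

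The 10 genes together made up 4.70% of the TPM of nuclear protein-coding genes in replicate 1 and 4.08% in replicate 2. From the highest mean level to the lowest the order was Atp2a1, Pvalb, Casq1, Srl, Hrc, Atp2a2, Casq2, Pln, Atp2a3 and Sln. Of the 9 neighbouring pairs in that order 2 overlapped between the libraries. Atp2a2 was lower than Hrc in replicate 1 and higher in replicate 2, and the ranges of Casq2 and Pln overlapped although Casq2 was the higher of the pair in each library. The other 7 pairs did not overlap.

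**Figure D1:**
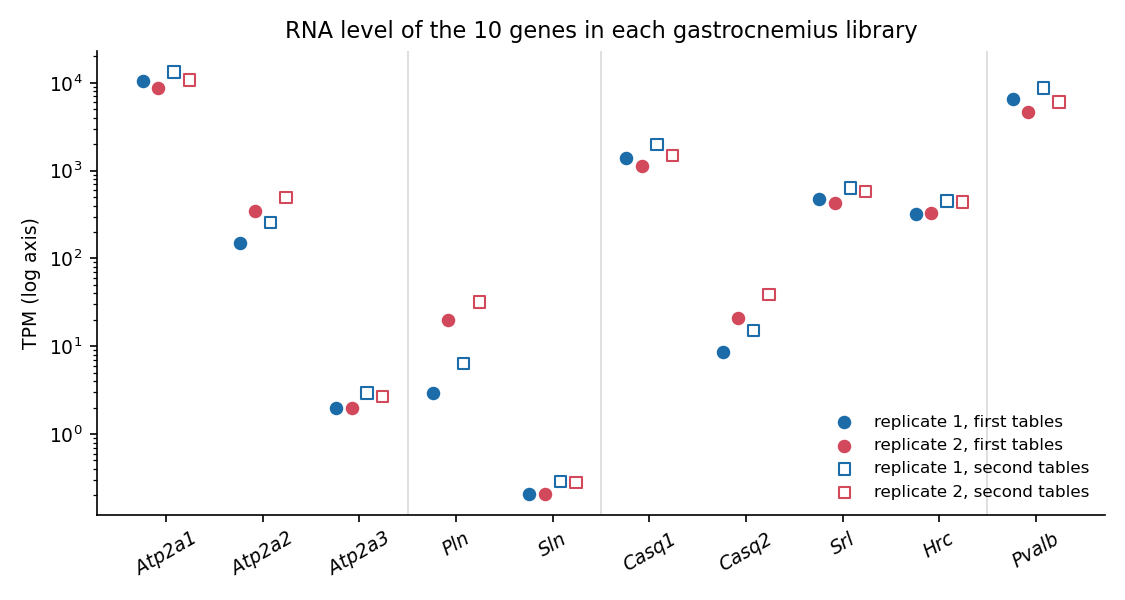
Level of each gene in TPM on a log axis, for replicate 1 (blue) and replicate 2 (red), in the first tables (filled circles) and the second tables (open squares); vertical lines separate pumps, pump inhibitors, luminal buffers and the cytosolic buffer. Atp2a1 and Pvalb stand highest and Sln below 1 TPM, and the gaps between the libraries are widest for Pln, Atp2a2 and Casq2.

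Among the pumps, Atp2a1 RNA exceeded the others by a wide margin. Atp2a1, which encodes the fast-fibre pump (SERCA1), was at 10387 TPM in replicate 1 against 8813 TPM in replicate 2 (9600 ± 1113, n = 2), and ranked 8 among 22015 nuclear protein-coding genes. Atp2a2, which encodes the slow and cardiac pump (SERCA2), was at 152 TPM in replicate 1 against 350 TPM in replicate 2 (251 ± 141, n = 2). Atp2a3, which encodes a pump found mainly outside muscle fibres (SERCA3), was at 1.98 TPM and 1.99 TPM in the same order. Both libraries thus placed the 3 pumps in the same order without overlap.

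The share of pump RNA carried by Atp2a1 was 98.5% in replicate 1 and 96.2% in replicate 2 (97.3% ± 1.69, n = 2). That of Atp2a2 was 1.44% and 3.82%, and that of Atp2a3 0.0188% and 0.0217%. Atp2a1 RNA was 68.5 times Atp2a2 RNA in replicate 1 and 25.1 times in replicate 2. The fast pump therefore led in both libraries while its lead over the slow pump differed between them.

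Replicate 2 held 47885 reads of Atp2a2 against 20719 in replicate 1, a log2 ratio of 1.26 [1.23, 1.28] or 2.39-fold. Of the 11515 genes that passed the filter, 84 had a higher ratio. Atp2a1 went the other way by less than 1.5-fold, with 1203742 reads in replicate 1 and 1021878 in replicate 2 and a log2 ratio of -0.19 [-0.19, -0.18]. For Atp2a3 the counts were 285 and 289, and the interval of its log2 ratio, 0.07 [-0.17, 0.31], spanned 0. Only Atp2a2 of the 3 pumps was past 1.5-fold.

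The second tables gave Atp2a2 a smaller ratio of 2.10-fold. Its level there was 258 TPM in replicate 1 against 493 TPM in replicate 2, on the higher TPM scale of those tables. They assigned Atp2a2 6478 more reads than the first tables in replicate 1 and 6121 more in replicate 2, amounts that differed little although the gene's own level more than doubled. The leading transcripts of the pumps gave the only 3 of 45 pairs of members to share identical stretches of 31 bases, with 14 such words between Atp2a1 and Atp2a2 and 26 between Atp2a1 and Atp2a3. The part of these stretches in the reads assigned to Atp2a2 was not tested.

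Both muscle pumps are spliced at the 3′ end into forms that differ in their last codons. Almost all Atp2a1 RNA was assigned to transcript Atp2a1-201, at 99.9% of the gene's TPM in replicate 1 and 99.8% in replicate 2, which includes a small penultimate exon (chr7:126446545-126446586, mm10) and ends as the adult form SERCA1a. Transcript Atp2a1-202, an annotation incomplete at its 5′ end, skips that exon and ends as the neonatal form SERCA1b. It was at 15.1 TPM in replicate 1 against 18.1 TPM in replicate 2, and at 9.22 TPM and 8.63 TPM in the second tables. The posterior standard deviation of its 301 reads in replicate 1 was 42.7 reads, and that of its 362 reads in replicate 2 was 50.4 reads.

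The coding ends of these forms, with 30 shared bases in lower case and the bases of each form alone, stop codon included, in capitals, are printed 5′ to 3′ from the minus strand of chromosome 7 to show how little sequence separates adult from neonatal pump.
Atp2a1-201: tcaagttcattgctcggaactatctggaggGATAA
Atp2a1-202: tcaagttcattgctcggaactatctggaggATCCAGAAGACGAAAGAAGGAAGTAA
The adult end has 1 codon and the neonatal end 8 codons after the split, counting the codon that the splice divides.

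Atp2a2 RNA was mostly that of the muscle form. Transcript Atp2a2-202, which ends as SERCA2a of heart and slow muscle, took 78.0% of the gene's TPM in replicate 1 and 76.7% in replicate 2. Transcript Atp2a2-201, which ends as SERCA2b of most other tissues, took 20.1% and 21.5%. Atp2a2-203, annotated as subject to nonsense-mediated decay, took 1.09% and 0.830%. The division between the 2 main forms was almost the same in both libraries, while both forms were higher in replicate 2, at 118 and 269 TPM for Atp2a2-202 and at 30.4 and 75.3 TPM for Atp2a2-201. The second tables gave Atp2a2-202 83.4% and 81.9%.

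Their coding ends on the minus strand of chromosome 5 follow in the same layout, shown because here the encoded pumps differ; the annotated transcripts also differ in untranslated bases at both ends.
Atp2a2-202: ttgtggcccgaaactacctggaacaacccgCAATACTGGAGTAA
Atp2a2-201: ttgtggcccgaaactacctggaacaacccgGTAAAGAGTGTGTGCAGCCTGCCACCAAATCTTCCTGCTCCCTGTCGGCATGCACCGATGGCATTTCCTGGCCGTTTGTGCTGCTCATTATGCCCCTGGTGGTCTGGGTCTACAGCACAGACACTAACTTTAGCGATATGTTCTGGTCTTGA
SERCA2a ends with 4 codons of its own and SERCA2b with 50, which encode an added membrane-spanning tail.

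**Figure D2:**
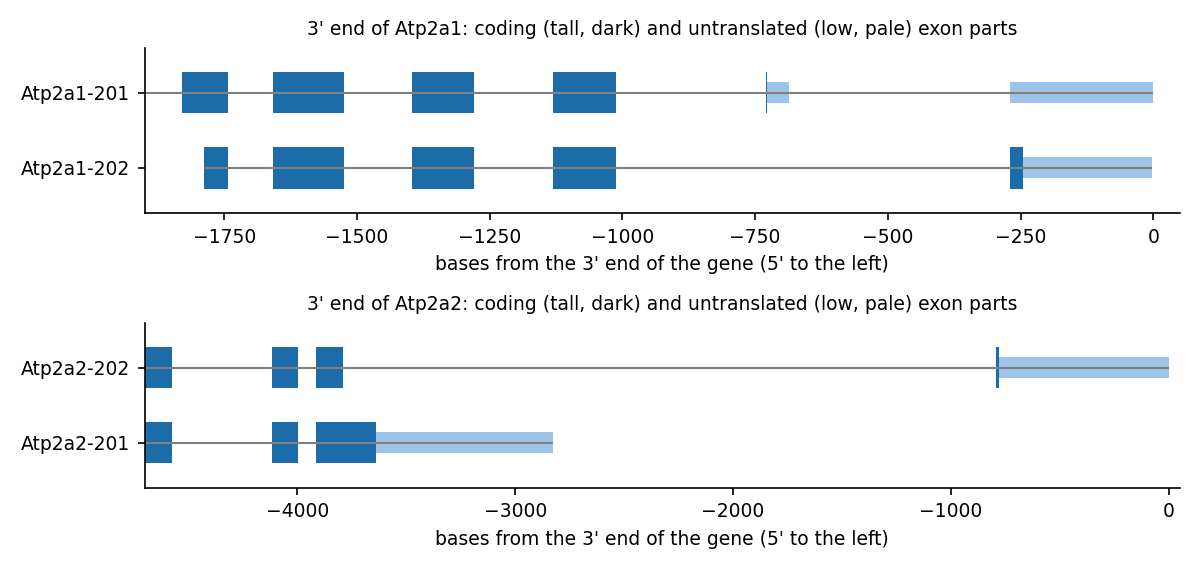
Exons at the 3′ end of Atp2a1 and Atp2a2 by distance in bases from the gene's 3′ end, with coding parts tall and dark and untranslated parts low and pale. The adult Atp2a1-201 stops within a small extra exon that Atp2a1-202 skips, and Atp2a2-201 reads on through the exon that Atp2a2-202 splices out of.

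For Atp2a3 the transcripts could hardly be told apart at this depth. Atp2a3-201 took 54.3% of the gene's TPM in replicate 1 and 91.5% in replicate 2, with posterior standard deviations of 56.8 reads on 166 reads and 49.0 reads on 281 reads. Atp2a3-207, Atp2a3-203, Atp2a3-204 and Atp2a3-202 each had between 4.52% and 14.1% in replicate 1 and at most 1.51% in replicate 2. The non-coding Atp2a3-205 took 7.54% and 7.04%.

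The pump inhibitors were scarce beside the pumps. Pln was at 2.97 TPM in replicate 1 against 20.02 TPM in replicate 2 (11.5 ± 12.1, n = 2). Sln, which encodes sarcolipin, an inhibitor that uncouples pumping from ATP use and is prominent in atria and in slow muscle of large mammals, was at 0.21 TPM in both libraries, from 9 reads in each. Sln, the only member below the count filter, ranked 12309 among 22015 coding genes.

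Pln differed most between the libraries of the 10 genes. Its 166 reads in replicate 1 and 828 in replicate 2 gave a log2 ratio of 2.36 [2.12, 2.62], or 5.15-fold, and 7 of the 11515 genes had a higher ratio. The second tables gave 173 and 823 reads and 5.01-fold. On the TPM scale of the first tables the ratio was 6.74-fold, because the gene's effective length was put at 1628 bases in replicate 1 and 1203 bases in replicate 2. Pln RNA per 100 Atp2a2 RNA was 1.96 in replicate 1 and 5.71 in replicate 2, so Pln differed more between the libraries than the pump it inhibits.

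The annotation gives Pln 6 transcripts that carry the same coding sequence and differ in their untranslated parts. Pln-201 took 55.9% of the gene's TPM in replicate 1 and 37.0% in replicate 2, and Pln-204 took 35.02% and 29.6%. Pln-205 stood at 0.03 TPM in replicate 1 against 6.11 TPM in replicate 2 of the first tables, and at 0 TPM in both libraries of the second tables. In the second tables Pln-204 led, with 53.6% and 69.6%. Pln-206 took 8.08% and 0.549% and Pln-202 0% and 2.00% in the first tables. The tables thus placed the reads of this gene on different transcripts, while the count of the gene hardly depended on the table.

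Other genes that act on the pumps were taken from a list of 10, of which 9 passed the count filter, 2 were higher in replicate 2 past 1.5-fold and 0 were lower past it. The median log2 ratio of the 9 was 0.05, against 0.01 over all genes. Mrln encodes myoregulin, a micropeptide that inhibits the fast-fibre pump, and was at 108 TPM in replicate 1 against 74.5 TPM in replicate 2, a log2 ratio of -0.49 [-0.62, -0.37]. Strit1 encodes the micropeptide DWORF, which counteracts phospholamban, and was at 20.4 TPM in replicate 1 against 56.6 TPM in replicate 2, a log2 ratio of 1.52 [1.19, 1.86] from 101 and 280 reads. Strit1 was listed at 0 in the second tables of both libraries, so its level rests on the first tables alone. Arln, which encodes another micropeptide inhibitor, was at 8.87 and 13.2 TPM with a log2 ratio of 0.62 [0.41, 0.83].

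Among the micropeptide genes, myoregulin RNA was the most abundant in both libraries. It was 36.4 times Pln RNA in replicate 1 and 3.72 times in replicate 2, and 515 and 355 times Sln RNA. The other leading genes of the list were Camk2a, a kinase gene, at 177 and 126 TPM, and S100a1, a calcium sensor that binds the pump, at 59.3 and 76.7 TPM. The kinase of Camk2a phosphorylates phospholamban, but the transcripts of this gene were not separated. How much of its RNA encodes the kinase was not tested. Erln was listed at 0 in both libraries.

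The whole coding sequences of 4 of these small proteins are printed to show how short the genes' products are, from the plus strand of chromosome 10 for Pln, from chromosome 9 for Sln, chromosome 10 for Mrln and chromosome 3 for Strit1, annotated as Gm34302. Capitals mark codons 16 and 17 in Pln, the serine and threonine codons whose products are phosphorylated to relieve the pump, and the start and stop codons in the others.
Pln-201: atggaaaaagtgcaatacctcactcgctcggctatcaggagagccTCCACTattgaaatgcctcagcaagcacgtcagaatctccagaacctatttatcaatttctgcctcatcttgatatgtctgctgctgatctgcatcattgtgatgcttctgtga
Sln-201: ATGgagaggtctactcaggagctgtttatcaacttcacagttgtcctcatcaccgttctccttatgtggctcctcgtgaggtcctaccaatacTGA
Mrln-201: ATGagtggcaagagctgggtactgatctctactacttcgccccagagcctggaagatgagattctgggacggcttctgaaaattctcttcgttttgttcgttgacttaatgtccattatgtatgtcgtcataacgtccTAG
Gm34302-201: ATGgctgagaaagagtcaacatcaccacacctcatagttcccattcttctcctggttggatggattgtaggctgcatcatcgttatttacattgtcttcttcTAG
Before the stop they hold 52, 31, 46 and 34 codons in the order printed. The Pln sequence lies in 1 exon at chr10:53343864-53344022.

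The luminal buffers were led by Casq1, which encodes skeletal muscle calsequestrin, the main calcium store of the sarcoplasmic reticulum. Casq1 was at 1404 TPM in replicate 1 against 1130 TPM in replicate 2 (1267 ± 194, n = 2). Casq2, which encodes the cardiac calsequestrin also found in slow fibres, was at 8.58 TPM in replicate 1 against 20.8 TPM in replicate 2 (14.7 ± 8.62, n = 2). Casq1 made up 99.4% of calsequestrin RNA in replicate 1 and 98.2% in replicate 2 (98.8% ± 0.847, n = 2), or 164 and 54.4 times Casq2 RNA. Casq1 thus led in both libraries, as Atp2a1 did among the pumps, and Casq2 had a larger share in replicate 2, as Atp2a2 did.

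Casq2 had 724 reads in replicate 1 and 1755 in replicate 2, a log2 ratio of 1.33 [1.20, 1.45] or 2.51-fold, and 74 of the 11515 genes had a higher ratio. Casq1 had a log2 ratio of -0.27 [-0.28, -0.25]. Casq2 was past 1.5-fold and Casq1 was not.

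Srl encodes sarcalumenin and a shorter glycoprotein of the same membranes, and was at 480 TPM in replicate 1 against 429 TPM in replicate 2 (455 ± 36.1, n = 2), with a log2 ratio of -0.06 [-0.08, -0.05]. Hrc, the histidine-rich calcium-binding protein that also docks on the release channel complex, was at 321 TPM in replicate 1 against 328 TPM in replicate 2 (324 ± 5.52, n = 2), with a log2 ratio of 0.08 [0.06, 0.11]. These 2 genes differed least between the libraries among the 5 most abundant members. Hrc RNA was 0.228 of Casq1 RNA in replicate 1 and 0.291 in replicate 2, and Srl RNA was 0.342 and 0.380 of it.

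The forms of Srl were about equally abundant. Srl-201, whose 910 codons encode sarcalumenin, took 40.8% of the gene's TPM in replicate 1 and 44.3% in replicate 2. Srl-202, whose 472 codons encode the shorter glycoprotein, took 44.3% and 43.2%. The forms differ by an exon of 1311 bases (chr16:4496405-4497715, mm10) that is coding in Srl-201 and skipped in Srl-202. The second tables gave 46.9% and 46.1% to Srl-201 and 39.3% and 38.1% to Srl-202, so which of them led depended on the table.

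The short non-coding transcripts of Srl were read differently by the tables. Srl-203, with a retained intron, was at 69.3 and 52.5 TPM in the first tables and at 2.92 and 0.825 TPM in the second. Srl-205 was listed at 0 in the first tables and at 84.9 and 89.9 TPM in the second. Between 12.2% and 15.7% of the gene's TPM therefore lay on one or the other of these transcripts, 349 and 353 bases long, whichever table was read.

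Casq1-201, the full coding transcript, took 86.1% of the gene's TPM in replicate 1 and 85.5% in replicate 2, and Casq1-202, with a retained intron, took 13.9% and 14.5%. The second tables gave Casq1-202 6.74% and 3.09%. Casq2-201 took all of the gene's TPM in the first tables and 78.3% and 67.4% in the second. There the rest lay mainly on the non-coding Casq2-203, at 3.14 and 4.67 TPM, and Casq2-202, at 0.121 and 7.71 TPM. Hrc-201 took 98.1% and 97.8% of Hrc TPM and Hrc-202 took 1.90% and 2.18%. For every luminal buffer the coding transcripts held most of the RNA in both kinds of table.

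**Figure D3:**
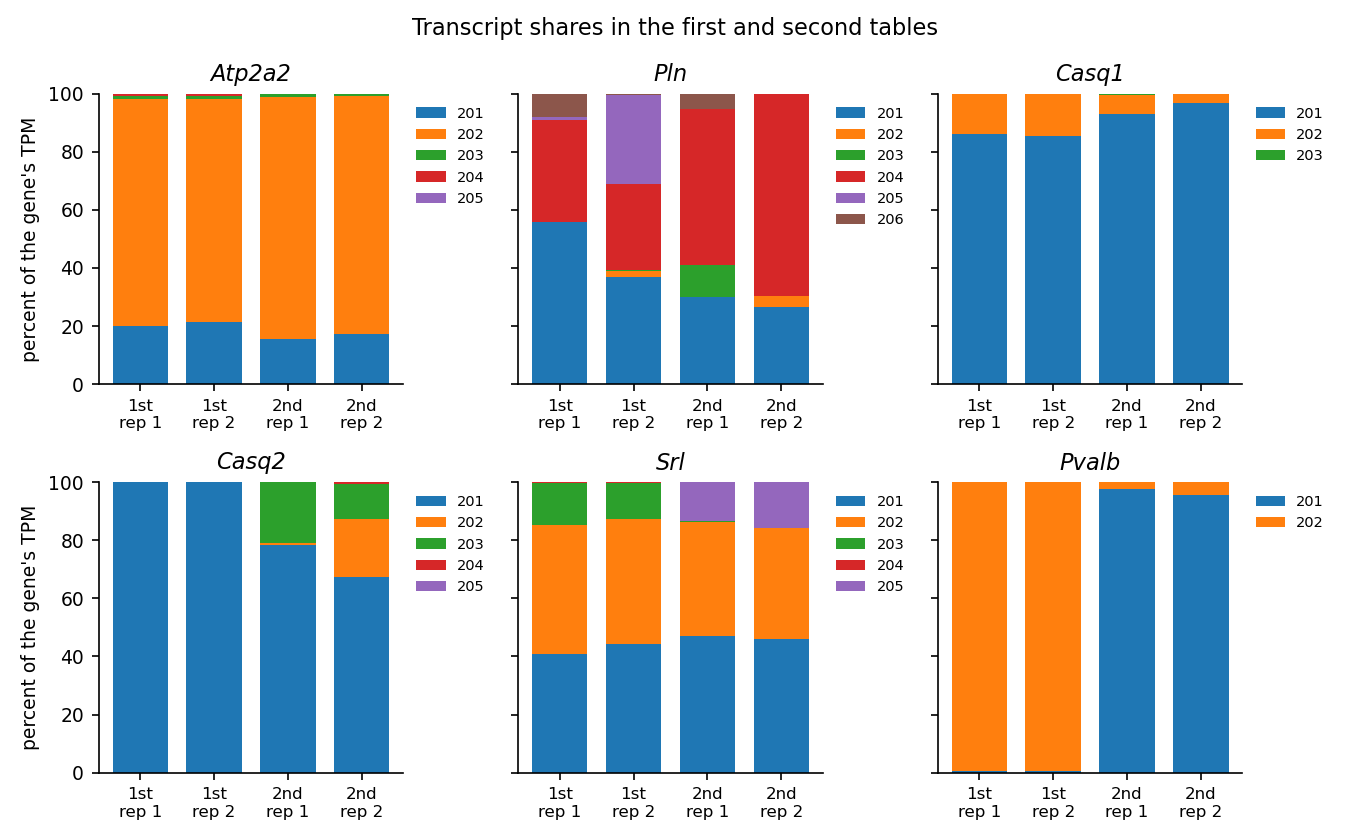
Share of each gene's TPM, in percent, assigned to its annotated transcripts (colours, numbered as in GENCODE) in the first (1st) and second (2nd) tables of replicate 1 and replicate 2. Atp2a2 is led by transcript 202 and Casq1 by 201 in both kinds of table, with a smaller Casq1-202 share in the second, whereas Pvalb moves from transcript 202 to 201, and Pln and Srl RNA is divided differently by the tables.

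The buffers share a feature that their level does not show: codons that begin GA, which encode the acidic residues aspartate and glutamate that bind calcium. Among 21524 nuclear coding genes with at least 50 codons in their longest complete coding sequence, the median share of such codons was 11.2%. It was 30.8% in Hrc, which 15 genes exceeded, 28.4% in Casq1, which 29 exceeded, and 26.7% in Casq2, which 43 exceeded. Pvalb had 20% and Srl-201 19.5%, while Srl-202 had 13.6%, since the exon it skips holds 25.5%. The pumps lay near the median, at 11.8% to 12.9%, and the inhibitors below it, at 3.85% for Pln and 6.45% for Sln.

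**Figure D4:**
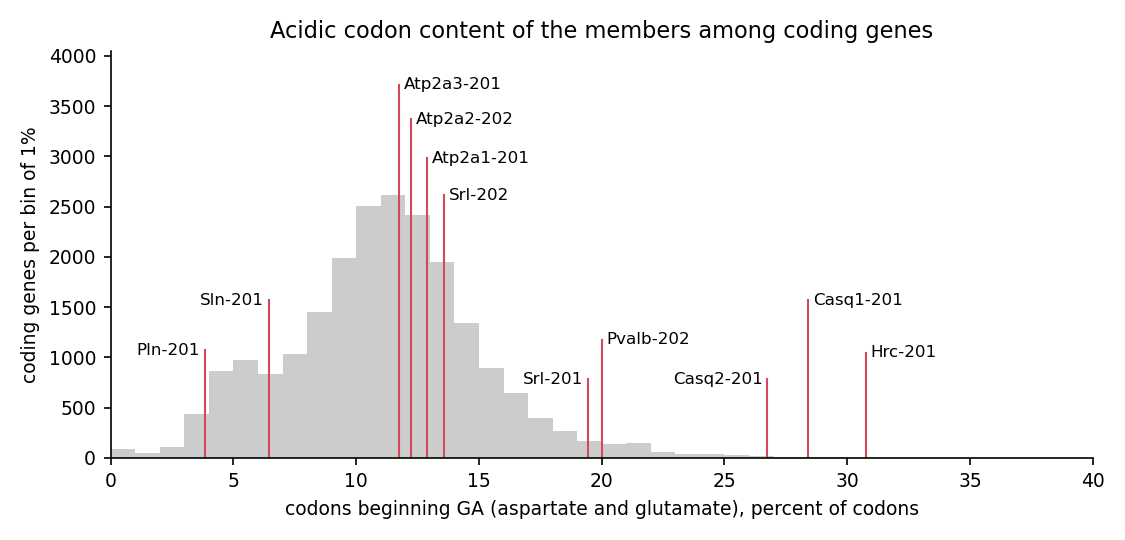
Number of nuclear coding genes (grey bars) by the percent of their codons that begin GA, with red lines at 1 coding transcript of each member and at both main forms of Srl (line heights carry no value). The calsequestrins and Hrc lie in the far right tail, Pvalb and Srl-201 near 20%, the pumps in the middle and the inhibitors on the left.

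The last 90 coding bases of both calsequestrins show where these codons crowd, with every GA codon in capitals.
Casq1-201: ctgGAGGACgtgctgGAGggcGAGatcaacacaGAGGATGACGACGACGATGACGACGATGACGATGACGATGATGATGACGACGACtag
Casq2-201: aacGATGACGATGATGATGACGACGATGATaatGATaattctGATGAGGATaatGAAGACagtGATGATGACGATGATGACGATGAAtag
Of the 29 codons before the stop, 22 in Casq1 (chr1:172210345-172210434, minus strand) and 23 in Casq2 (chr3:102145341-102145430, plus strand) begin GA. Both genes therefore end in an acidic tail, written in different runs of codons.

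In Hrc and Srl the acidic codons lie inside the protein. For each gene the stretch of 40 codons with most capitals is printed. Capitals mark GA or histidine codons in Hrc and only GA codons in Srl, so the Hrc stretch was not chosen on acidic codons alone.
Hrc-201: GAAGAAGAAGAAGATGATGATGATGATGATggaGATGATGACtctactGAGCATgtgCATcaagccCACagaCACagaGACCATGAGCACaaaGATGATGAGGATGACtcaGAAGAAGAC
Srl-201: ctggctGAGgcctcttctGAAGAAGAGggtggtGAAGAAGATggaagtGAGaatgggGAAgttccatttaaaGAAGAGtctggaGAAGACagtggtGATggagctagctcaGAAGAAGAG
The Hrc stretch covers codons 340 to 379 (chr7:45336444-45336563, plus strand), with GA codons and the histidine codons CAC and CAT in capitals, 30 of 40. Histidine made up 11.1% of Hrc codons against a median of 2.49% over coding genes, and 11 genes had more. The Srl stretch covers codons 355 to 394 (chr16:4496595-4496714, minus strand), with 17 GA codons, and lies in the exon that Srl-202 skips.

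The cytosolic buffer Pvalb encodes parvalbumin, which takes calcium from troponin in fast fibres before the pumps remove it. Pvalb was at 6487 TPM in replicate 1 against 4677 TPM in replicate 2 (5582 ± 1280, n = 2), and ranked 12 among coding genes. Its log2 ratio was -0.42 [-0.43, -0.41], or 1.34-fold higher in replicate 1, and 558 of the 11515 genes had a lower ratio. Pvalb RNA was 0.625 of Atp2a1 RNA in replicate 1 and 0.531 in replicate 2. Parvalbumin RNA thus stood below that of the fast pump in both libraries.

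The tables disagreed on where Pvalb RNA starts. In the first tables Pvalb-202, which begins at position 78206400 of chromosome 15 with an extra untranslated exon, took 99.5% of the gene's TPM in replicate 1 and 99.5% in replicate 2. In the second tables Pvalb-201, which begins at position 78204237, took 97.6% and 95.7%. Both transcripts hold the same 110 codons, so the choice leaves the coding sequence as it is, but the start site cannot be read from these tables.

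The 250 bases before each start are printed from the RefSeq promoter table (GRCm38.p6, minus strand), which holds 8 entries for 7 of the members and names none for Atp2a2, Sln and Srl. Both strands were searched for CANNTG (the E-box of myogenic factors), for the MEF2 motif and CArG box by name, and for TATAAA, and capitals mark matches of CANNTG and MEF2.
Pvalb-202 start, chr15:78206401-78206650: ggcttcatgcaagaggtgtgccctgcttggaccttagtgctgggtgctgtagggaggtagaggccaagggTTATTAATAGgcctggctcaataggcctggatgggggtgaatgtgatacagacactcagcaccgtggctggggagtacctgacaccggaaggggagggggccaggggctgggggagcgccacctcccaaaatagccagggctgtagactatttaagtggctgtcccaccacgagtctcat
Pvalb-201 start, chr15:78204238-78204487: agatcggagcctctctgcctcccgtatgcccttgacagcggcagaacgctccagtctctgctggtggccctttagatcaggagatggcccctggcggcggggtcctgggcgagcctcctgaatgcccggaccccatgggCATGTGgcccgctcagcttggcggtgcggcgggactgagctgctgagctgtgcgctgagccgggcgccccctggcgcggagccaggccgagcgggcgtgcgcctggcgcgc
The window of the Pvalb-202 start held 1 MEF2 match and 0 CANNTG, and that of the Pvalb-201 start 1 CANNTG and 0 MEF2. Among 32851 promoter windows of this length 2.92% held the MEF2 motif and 66.2% CANNTG. Of the 8 member windows 2 held MEF2 (Casq2 being the other), 6 CANNTG, 1 TATAAA (Pln) and 0 a CArG box, against 12.4% and 1.47% of all windows for the last 2, and no MEF2 and CANNTG matches overlapped.

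Between the libraries, 3 of the 9 members that passed the count filter were past 1.5-fold, Atp2a2, Pln and Casq2, all higher in replicate 2, and 0 were past it in the other direction. Over all 11515 genes the share was 6.74%, with 4.26% higher in replicate 2 and 2.48% higher in replicate 1. These 3 are the genes named at the outset for slow fibres and heart. Sln, the inhibitor prominent in atria, had 9 reads in each library and was below the filter. Atp2a1, Casq1 and Pvalb had log2 ratios below 0 within 1.5-fold. In bulk tissue a smaller share of a fibre type and less of its RNA per fibre cannot be told apart.

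Slow fibre markers moved with these 3 genes. Of 11 slow fibre markers outside the members, all of which passed the filter and none of which was at 0, 10 were higher in replicate 2 past 1.5-fold and 0 lower, with a median log2 ratio of 1.34 and a range from 0.24 to 1.51. Among them Myl2, a slow myosin light chain, went from 304 to 800 TPM, Myl3, another light chain, from 207 to 543 TPM, and Myh7, the slow myosin heavy chain, from 204 to 529 TPM. The ratios of Atp2a2 and Casq2 lay within the range of these markers, and that of Pln, with its whole interval, lay above it. The part of fibre make-up in the members' ratios was not tested.

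Fast fibre markers went the other way with 1 exception. Of 10 such markers, 9 had log2 ratios from -0.52 to -0.21, with a median of -0.35 over the 10, and Myh1, the myosin heavy chain of type 2X fibres, was past 1.5-fold higher in replicate 2 at 0.95. The most abundant were Tnnt3, Mylpf and Myh4, which encode fast troponin T, a fast light chain and the heavy chain of type 2B fibres. Casq1 and Pvalb, at -0.27 and -0.42, lay within the range of the 9, and Atp2a1, at -0.19, lay just above it. Mb, the oxygen store myoglobin, was past 1.5-fold higher in replicate 2 among the muscle fibre markers, at a log2 ratio of 1.07.

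**Figure D5:**
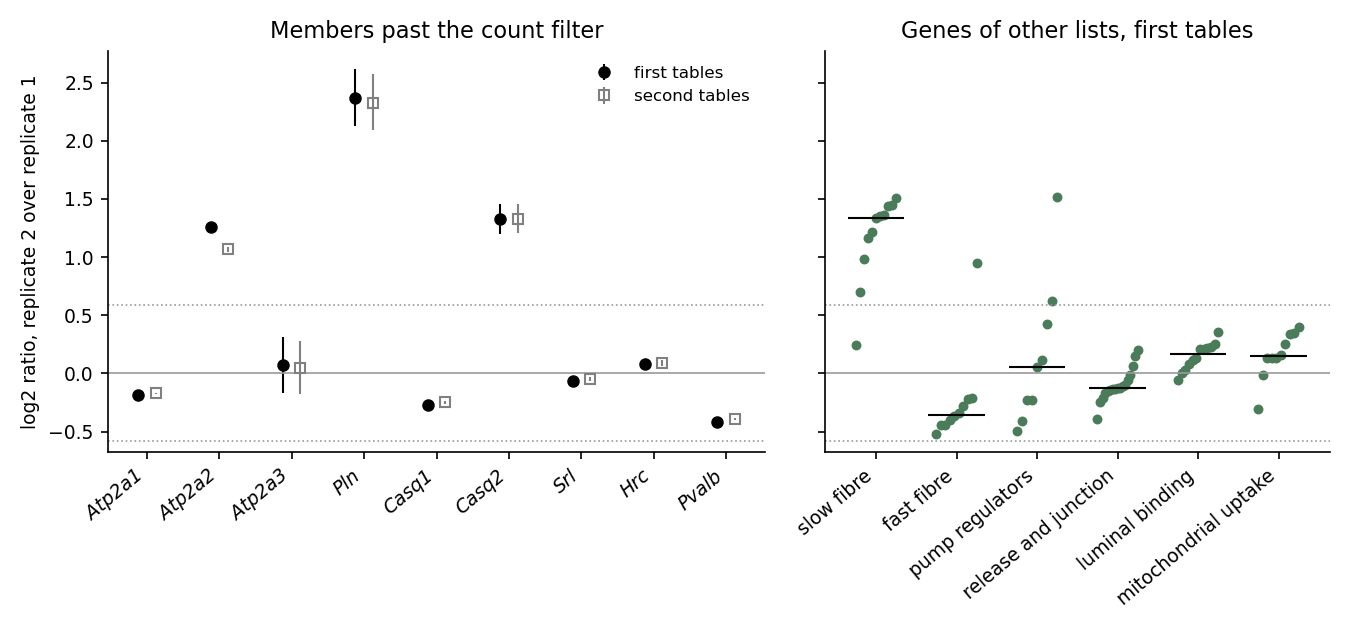
Left, log2 ratio of replicate 2 over replicate 1 for the 9 members that passed the count filter, from the first (filled) and second (open) tables, with exact 95% intervals for counting error; right, the same ratio for single genes of 6 lists, with a bar at each median. Dotted lines mark 1.5-fold, which Atp2a2, Pln and Casq2 pass, and Pln lies above all slow fibre markers.

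Heart also uses Atp2a2, Pln and Casq2, so heart markers were read beside them. Of 9 heart and atrial markers, Nppa, Nppb, Myl7, Nkx2-5 and Gata4 were listed at 0 in both libraries of the first tables. Myh6, the alpha myosin heavy chain, was the only one to pass the filter, at 42.6 TPM in replicate 1 against 105 TPM in replicate 2, a log2 ratio of 1.37, while Myl4 stood at 1.15 and 1.53 TPM and Tnni3 at 0.16 and 0.12 TPM. Reads of Myh6 and its near-identical neighbour Myh7 can be split in counting, so the level of Myh6 is uncertain. The second tables put Myh6 at 22.5 TPM in replicate 1 against 57.1 TPM in replicate 2, with a similar log2 ratio of 1.35. The other heart and atrial markers were below the count filter. In the second tables Myl4 stood at 1.93 and 3.23 TPM and Gata4 at 0.274 and 0.130 TPM. The part of heart RNA in the members' ratios was not tested.

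Smooth muscle uses Atp2a2 and Pln as well, so its markers were read in the same way. Of 10 smooth muscle and pericyte markers 9 passed the filter, 0 were higher in replicate 2 and 1, Tagln, was lower past 1.5-fold at a log2 ratio of -0.67. The median was 0.04, and the list summed to 146 TPM in replicate 1 against 132 TPM in replicate 2. The leading genes were Rgs5, Smtn and Acta2. Platelets and lymphocytes are among the cells that use Atp2a3, and their markers were scarce. Of 6 platelet and 7 lymphocyte markers 0 passed the filter, and Gp1bb and Cd3g were at 0. The platelet markers summed to 2.78 and 1.92 TPM and the lymphocyte markers to 0.56 and 0.60 TPM. The source of the Atp2a3 reads was not tested. Of 8 endothelial markers, all past the filter, 1 (Emcn) was higher in replicate 2 past 1.5-fold, with a median log2 ratio of 0.06. Of 6 macrophage markers 4 passed, 0 of them past 1.5-fold, with a median of -0.18, and of 10 nerve and muscle spindle markers 7 passed, with 1 (Myh13) higher in replicate 2 and a median of 0.00.

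No gene that passed the filter in the lists of other calcium genes that follow was past 1.5-fold between the libraries. Over all 11515 genes 6.74% were past it, so 0 in lists of this size is near that share. Of 18 genes of calcium release and the triad junction 17 passed the filter and 0 were past 1.5-fold. Their median log2 ratio was -0.13, with 14 below 0 and 3 above. They were led by Ryr1, the release channel, at 814 TPM in replicate 1 against 719 TPM in replicate 2, Trdn, which anchors calsequestrin to the channel, at 553 and 444 TPM, and Tmem38a, a counter-ion channel, at 504 and 467 TPM. Casq1 RNA was 1.72 times Ryr1 RNA in replicate 1 and 1.57 times in replicate 2, and Atp2a1 RNA 12.8 and 12.3 times. The balance of Casq1, Atp2a1 and release channel RNA was thus nearly the same in both libraries.

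Luminal and cytosolic calcium-binding proteins other than the members were far less abundant. All 12 luminal proteins of the endoplasmic reticulum passed the filter, with 0 past 1.5-fold. Their median log2 ratio was 0.17, with 11 above 0 and 1 below. Together they summed to 304 TPM in replicate 1 against 326 TPM in replicate 2, below Casq1 alone, and were led by the chaperones Hspa5, Calr and Hsp90b1. Of 10 cytosolic calcium-binding proteins 6 passed, with 0 past 1.5-fold and a median of -0.14. S100a1 was among the more abundant, and Ocm, which encodes another parvalbumin, was listed at 0.

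Plasma membrane, Golgi and mitochondrial routes likewise had 0 genes past 1.5-fold among those that passed the filter. Of 9 other calcium pumps and exchangers 6 passed, 0 were past 1.5-fold, the median was -0.15 and the sum was 72.1 TPM in replicate 1 against 66.3 TPM in replicate 2, against 10540 and 9166 TPM for the 3 sarcoplasmic reticulum pumps. Atp2b1, a plasma membrane pump, Atp2c1, a Golgi pump, and Slc8a3, a sodium-calcium exchanger, were the most abundant. Of 5 genes of store-operated entry 4 passed, with 0 past 1.5-fold and a median of -0.06, led by Stim1, Stim2 and Orai1. Of 11 genes of mitochondrial uptake 10 passed, with 0 past 1.5-fold and a median of 0.15, led by Vdac1, Vdac2 and Smdt1.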

How the data were processed

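Total RNA-seq of 2 gastrocnemius libraries was analysed from tables deposited by the authors. Per the deposited notes, all tables use mm10 and GENCODE M21. The first tables, per the file headers, give expected counts, TPM, a posterior standard deviation of each count and a posterior mean TPM, the latter 2 read as scores deposited by the authors. The second tables give, per transcript, estimated counts and TPM deposited by the authors and here summed to genes. The counting programs, their versions and the use of strand were not given in the sources used here. Sense and antisense reads may be mixed. The reference is of the B6 type and alleles were not separated. Entries that name no gene (26248 numeric entries with 1 read in replicate 1 and 0 in replicate 2, 96 ERCC RNAs and 1 phiX174 sequence) were left out.

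Ratios used counts scaled by TMM factors (edgeR 4.0.16, R 4.3.3) with 0.5 reads added, and exact Clopper-Pearson intervals. They cover counting error only, as PCR copies are not separate molecules. The limit that a count of 0 allows is 3 reads, which is 0.0702 CPM for replicate 1 and 0.0710 CPM for replicate 2. The libraries differed by more than sampling noise (chi-square of 71.6 per degree of freedom over 14817 genes). DESeq2 1.42.0 size factors, library totals, ERCC counts, other filters, folds, pseudocounts and the second tables were alternatives. The ratio step was tested on simulated data.

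Members and the 17 gene lists (160 entries) were chosen with earlier results of these data known. Named were all members, transcripts with at least 1% of their gene's TPM in the first tables, and of each list the 3 with the highest mean TPM and those past 1.5-fold. 1 list gene is not reported here. Atp2a1-202, Pvalb-201, Srl-205, Casq2-202, Casq2-203 and list genes beyond this rule were named after their values were seen. Erln was matched through its RefSeq synonym after the tables were read. Coding sequences are GENCODE M21 transcripts on mm10.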

Additional observations from a re-analysis of the deposited data

How the results depend on the processing

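The count of members past 1.5-fold was 3 under each of 8 alternatives: median-of-ratios factors, library totals, ERCC counts, a summed count of at least 20, no filter, 2-fold, 2 added reads and the second tables. Over all genes the number past the threshold was 776 of 11515 (6.74%), 1861 of 14817 (12.6%) with a summed count of at least 20, 8099 of 23264 (34.8%) with no filter and 224 of 11515 (1.95%) at 2-fold. With no filter the 3 of 10 members were no larger a share than that of all genes. Over single libraries of the first tables, the second tables and the counts, the Atp2a1 share of the pumps ranged from 95.5% to 98.5% and the Casq1 share of the calsequestrins from 97.3% to 99.4%. The log2 ratio of Pln was 2.75 from TPM, an alternative added after seeing the data. Of values of single members, 49 moved by more than their spread and 79 did not. No log2 ratio of counts changed sign, whereas on the TPM scale Hrc was 1.02-fold in the first and 0.973-fold in the second tables and Atp2a3 1.01-fold and 0.903-fold, replicate 2 over replicate 1. The leading transcript differed between the tables for Pln, Srl and Pvalb. No paired analysis was possible because there is 1 group. With 2 libraries, spread between animals could not be separated from technical spread, and the depth did not resolve the transcripts of Atp2a3 or any change in Sln.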
